A study of Homo sapiens with 12 samples.

Results

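The interaction of metastin-10 and GPR54 siRNA was measured in Ishikawa cells, an established line of endometrial cancer cells, on 12 arrays of 4 groups. It was the metastin-10 difference on the arrays labelled GPR54 siRNA minus the metastin-10 difference on the arrays labelled control siRNA. All 12 arrays of the series entered it, and it was computed for each of the 54613 probe sets that are not array controls. Each group held 3 arrays: metastin-10 with GPR54 siRNA, control peptide with GPR54 siRNA, metastin-10 with control siRNA, and control peptide with control siRNA. The siRNA was given for 48 hours, and 10 µM metastin-10 or the control peptide for the following 24 hours. The control peptide and the negative control siRNA are not described further in the labels, and the titles call the cells given both of them non-treated. The replicates are called biological in the labels. Every value below is a log2 level or a log2 difference of the deposited RMA values unless a fold is named, and errors of group means are SD with n = 3.

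Metastin, also called kisspeptin, is the product of the KISS1 gene, and metastin-10 is a short fragment from its C-terminal end. Its receptor GPR54, whose gene is now named KISS1R, is coupled to Gq, phospholipase C and protein kinase C. Kisspeptin is best known for the control of gonadotropin-releasing hormone neurons and as a suppressor of metastasis, and both KISS1 and its receptor are expressed in the endometrium and the placenta. A positive interaction arises where metastin-10 lowered a level with control siRNA and did not lower it as far with GPR54 siRNA, and equally where it raised the level with GPR54 siRNA only. The interaction weighs all 4 groups alike, so it does not tell these patterns apart. The shape over the 4 group means does: a group was said to stand alone when its gap to the nearest other mean exceeded the range of the other 3 means.

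The targeted gene was examined first. KISS1R, read by 1 probe set, had 9.60, 9.42 and 9.28 with metastin-10 and GPR54 siRNA, 9.46, 9.45 and 9.36 with control peptide and GPR54 siRNA, 8.43, 8.42 and 8.35 with metastin-10 and control siRNA, and 9.39, 9.32 and 9.14 with control peptide and control siRNA. The arrays labelled GPR54 siRNA were therefore not lower than their counterparts, with a fold of 2.04 over control siRNA under metastin-10 and of 1.1 under control peptide. The position that the siRNA targets and its relation to this probe set are not known from the labels, so the groups are called by their labels throughout. KISS1R was itself 1 of the genes past the interaction test, at 0.89 ± 0.14 (SE), with a limma adjusted p of 0.04996. That was the largest p below the threshold of 0.05, and the call was kept in only 1 of the 12 fits that left out 1 array, as described below. KISS1, the ligand, had an interaction of -0.00 and group means of 4.21, 4.24, 4.23 and 4.26 in the order of the groups above. The other 7 measured relatives of KISS1 and KISS1R, among them the neuropeptide FF receptors, lay between -0.23 and 0.16.

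Epithelial markers ranged over the 4 group means from EPCAM, between 13.01 and 13.10, and PAX8, between 10.78 and 10.84, to FOXA2, between 4.74 and 4.92. The median level of the 12 epithelial markers was 10.83. It was 4.46 for fibroblast, 5.09 for endothelial, 4.66 for leukocyte and 5.97 for smooth muscle markers. Among these, COL1A1 was bright, between 9.73 and 9.96. Of the 12 epithelial markers, 0 passed the interaction test, against 0.106% of all genes. KRT19 and MUC1 were lower with metastin-10 and control siRNA than in the other 3 groups. Of 33 markers of fibroblasts, endothelium, leukocytes and smooth muscle, 0 passed either test by limma, and 4 had an unadjusted interaction p under 0.05, and the mean level of each of these lists varied by 0.165 to 0.327 over the 12 arrays. Correlations between arrays ran from 0.992 to 0.998. Of the 62 array control probe sets, 0 had an adjusted interaction p under 0.05 by limma and 1 had an unadjusted p under 0.05. The 4 arrays with replicate number 3 had 3′ minus 5′ ACTB control levels of 0.287 to 0.364, against 0.665 to 0.899 on the other 8. They were also lowest on the first principal component, but replicate 1 of metastin-10 with control siRNA lay close to them. On the second component replicates 1 and 2 of metastin-10 with control siRNA had the highest values, 42.0 and 29.2, against at most 10.9 on the other arrays.

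Metastin-10 and the siRNA label interacted at 28 probe sets, 0.0513% of the 54613 tested, of which 25 had a positive (0.0458%) and 3 a negative value (0.00549%). Taking the brightest probe set of each of 19775 genes, 21 genes were past the test (0.106%), 19 with a positive (0.0961%) and 2 with a negative value (0.0101%). All 28 had the same sign in each of the 3 replicate numbers and on the linear scale. They were chosen by the interaction on these same arrays, which favours such agreement, so it describes them and supports nothing. The size of the called values ran from 0.67 to 2.13, with a median of 1.02. The precision was limited by the number of arrays: 95% intervals of an interaction had a median half-width of 0.358, against 0.253 for a difference between 2 groups of 3. Before adjustment, 3325 probe sets had a p under 0.05. Just outside the threshold lay CFAP126, CXCR4 and NTNG1, each with an adjusted p of 0.0616.

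**Figure D1:**
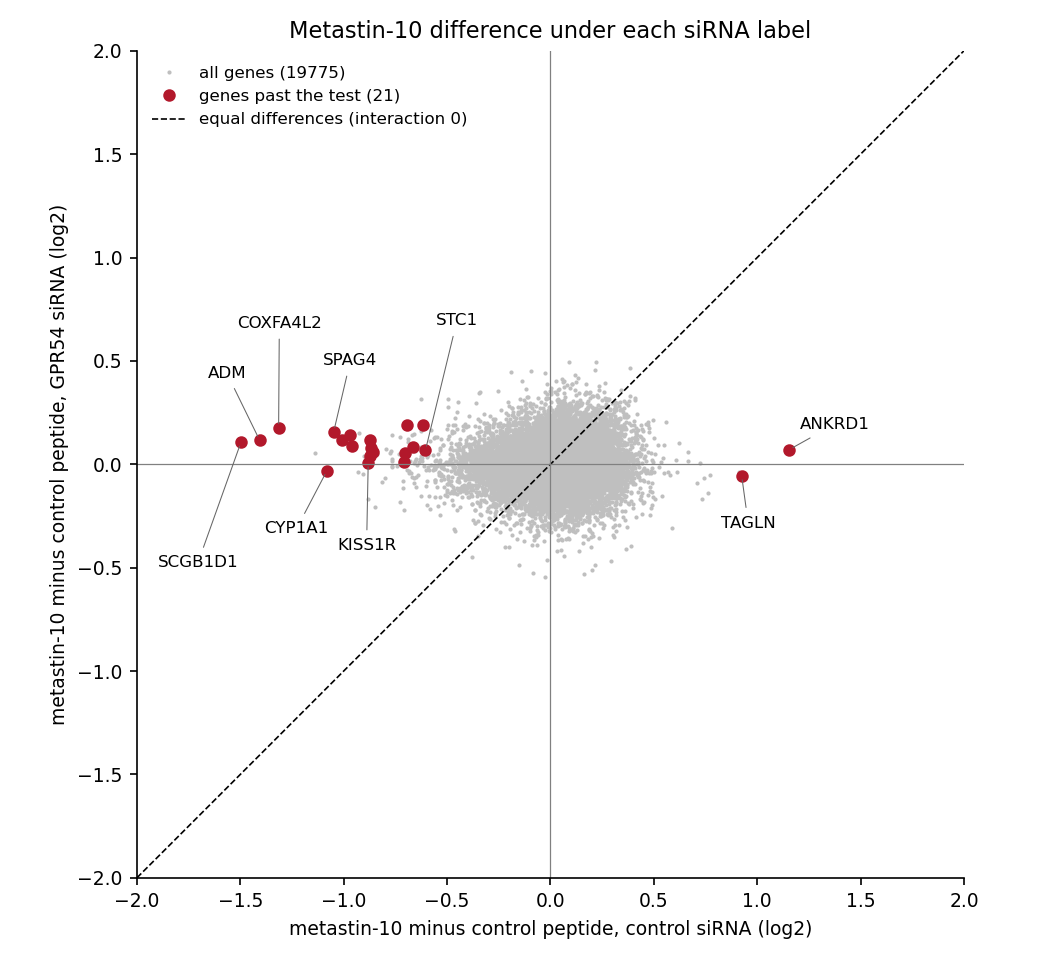
Metastin-10 difference on the arrays labelled GPR54 siRNA (vertical axis, log2) against that on the arrays labelled control siRNA (horizontal axis, log2) for 19775 genes, each a mean of 3 arrays minus a mean of 3 arrays. The 21 genes past the interaction test lie near 0 on the vertical axis and at least 0.60 from 0 on the horizontal axis.

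The shape over the 4 means was nearly uniform. Metastin-10 with control siRNA stood alone and low for 19 of the 21 genes, and alone and high for the other 2, ANKRD1 and TAGLN. Among all 19775 genes these shapes made up 17.8% and 13.8%. The sign of the interaction itself limits the shapes. Of all probe sets with a value above 0, 28.4% had the low shape, and of those below 0, 24.7% had the high one. No called gene had a shape in which the cells given metastin-10 with GPR54 siRNA stood alone. Over all genes that group stood alone and high for 3.26% and alone and low for 4.14%, so its absence among 21 genes tells little. For the 19 genes the metastin-10 difference lay between -0.03 and 0.19 with GPR54 siRNA, against -1.50 to -0.60 with control siRNA. Read the other way, the difference between the arrays labelled GPR54 siRNA and those labelled control siRNA lay between 0.70 and 1.85 under metastin-10, and between -0.21 and 0.34 under control peptide. Among the 3 groups that lay close together an order was also seen. For 17 of the 19 genes (89.5%) control peptide with control siRNA lay between metastin-10 with control siRNA and both groups labelled GPR54 siRNA, an order held by 17.9% of all genes. These shares describe genes chosen by the interaction itself and were not tested.

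**Figure D2:**
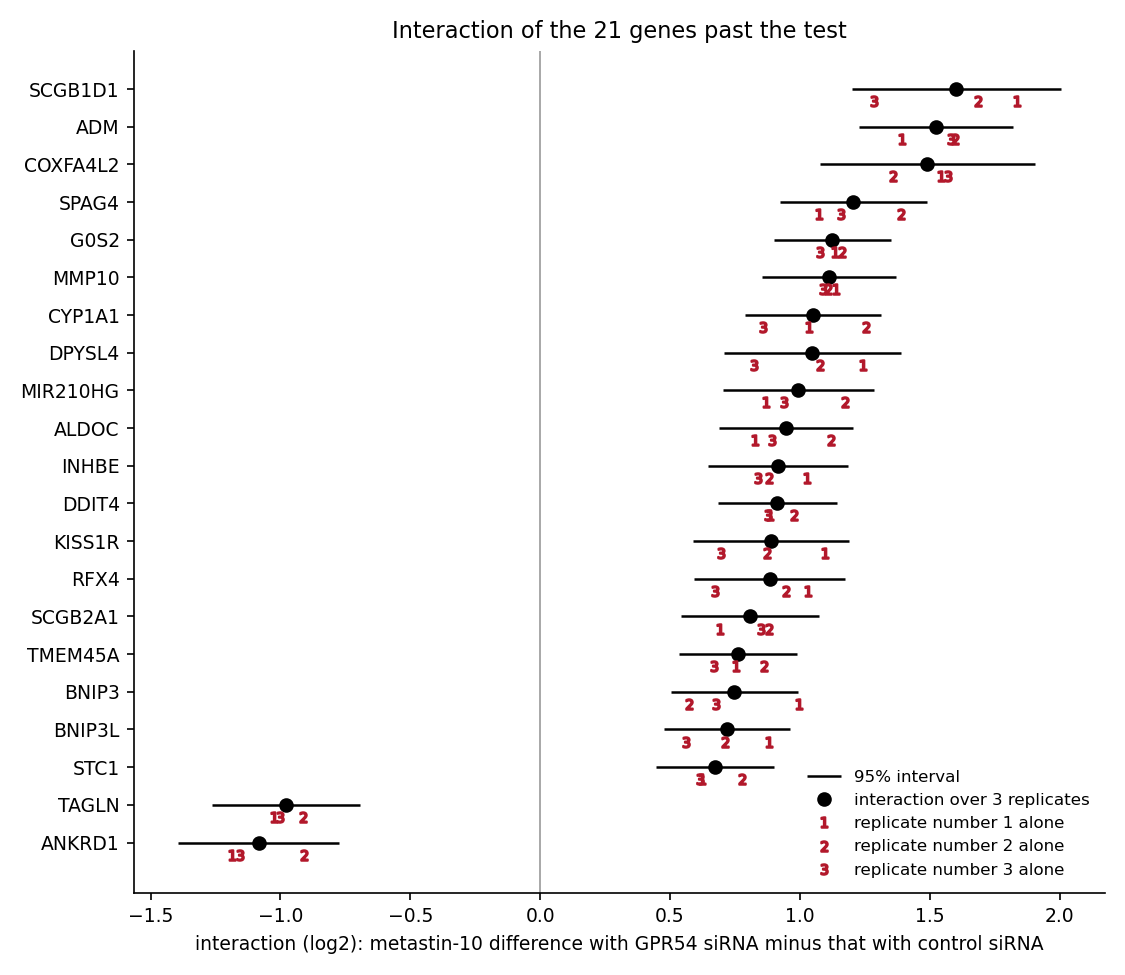
Interaction (horizontal axis, log2) of each of the 21 genes past the test, with the estimate over 3 arrays per group as a dot, its 95% interval as a line, and the value from the arrays of replicate number 1, 2 or 3 alone as a digit under the line. All 3 digits lie on the same side of 0 as the estimate for every gene shown, which the choice of these genes on the same arrays favours.

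Genes induced by low oxygen through the hypoxia-inducible factors HIF-1 and HIF-2 held more of the called genes than any other list. Of 41 measured genes on a list of such genes, not counting glycolysis, 8 were past the interaction test, all positive, against 0.106% of all genes. This list was also the longest. The lists were chosen with earlier results of these data known, so their ranking is a description and was not tested. ADM encodes adrenomedullin, a vasodilator peptide abundant in the endometrium. It had 11.38, 11.28 and 11.50 with metastin-10 and GPR54 siRNA, 11.32, 11.19 and 11.30 with control peptide and GPR54 siRNA, 9.67, 9.37 and 9.60 with metastin-10 and control siRNA, and 10.99, 10.88 and 10.99 with control peptide and control siRNA. The 3 arrays of metastin-10 with control siRNA lay at least 1.21 below all of the other 9, which spanned 0.617. Its interaction was 1.52 ± 0.14 (95% interval 1.23 to 1.82), with a limma adjusted p of 0.00279. As a fold, metastin-10 over control peptide was 1.08 with GPR54 siRNA and 0.377 with control siRNA.

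COXFA4L2, formerly NDUFA4L2, encodes a mitochondrial protein that is a HIF-1 target. Its values were 7.68, 7.84 and 8.02 with metastin-10 and GPR54 siRNA, 7.65, 7.53 and 7.83 with control peptide and GPR54 siRNA, 5.80, 6.33 and 6.11 with metastin-10 and control siRNA, and 7.31, 7.39 and 7.49 with control peptide and control siRNA. The interaction was 1.49 ± 0.19 with an adjusted p of 0.0196, and metastin-10 with control siRNA was below the other 9 arrays, with a wider spread than for ADM. SPAG4, a nuclear envelope protein of the SUN family, had an interaction of 1.21 ± 0.13 and group means of 8.13 with metastin-10 and GPR54 siRNA, 7.97 for control peptide with GPR54 siRNA, 6.58 with metastin-10 and control siRNA, and 7.63 with control peptide and control siRNA. The gap between the last group and those labelled GPR54 siRNA, 0.34 under control peptide, was the largest among the 19 genes. MIR210HG, the host transcript of the hypoxia-induced microRNA miR-210, had an interaction of 0.99 ± 0.13, and its second probe set had 0.88 and missed the test.

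DDIT4, also known as REDD1, encodes an inhibitor of the growth kinase complex mTORC1. It had 12.21, 12.27 and 12.22 with metastin-10 and GPR54 siRNA, 12.16, 12.20 and 12.21 with control peptide and GPR54 siRNA, 11.21, 11.26 and 11.30 with metastin-10 and control siRNA, and 12.04, 12.18 and 12.17 with control peptide and control siRNA. The 9 arrays outside metastin-10 with control siRNA lay within 0.232 of each other, and the interaction was 0.91 ± 0.11 with an adjusted p of 0.00799. BNIP3 and BNIP3L, mitochondrial proteins of the BCL2 family that act as receptors for mitophagy, had interactions of 0.75 ± 0.11 and 0.72 ± 0.11. Both lay near the threshold, with adjusted p-values of 0.043 and 0.04996, and second probe sets of both genes had 0.89 and 0.68 and missed it. TMEM45A, a membrane protein named here after its value was seen, had 0.76 ± 0.10. Of the 25 genes of glycolysis and glucose uptake, only ALDOC, the brain-type aldolase, was past the test, against 0.106% of all genes. It had 0.95 ± 0.12 with an adjusted p of 0.0187.

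The promoters of these genes are shown because HIF binds a short core, ACGTG or GCGTG, next to the start of many of its targets. Windows of 300 bases, 250 before and 50 after the start, were taken from RefSeq on build GRCh38.p14, with the first start listed for each gene, and both strands were searched. Capitals mark the cores, overlapping matches included, and the sequences run 5′ to 3′ on the gene's strand. ADM lies at chr11:10304823-10305122 (plus strand), BNIP3 at chr10:131981874-131982173 (minus strand), ALDOC at chr17:28576846-28577145 (minus strand) and DDIT4 at chr10:72273674-72273973 (plus strand).
ADM: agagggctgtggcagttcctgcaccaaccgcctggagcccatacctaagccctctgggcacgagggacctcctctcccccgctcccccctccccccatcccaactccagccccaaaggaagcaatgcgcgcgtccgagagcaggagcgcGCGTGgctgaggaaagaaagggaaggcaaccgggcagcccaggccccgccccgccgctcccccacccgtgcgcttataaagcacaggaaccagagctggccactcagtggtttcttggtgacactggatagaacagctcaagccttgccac
BNIP3: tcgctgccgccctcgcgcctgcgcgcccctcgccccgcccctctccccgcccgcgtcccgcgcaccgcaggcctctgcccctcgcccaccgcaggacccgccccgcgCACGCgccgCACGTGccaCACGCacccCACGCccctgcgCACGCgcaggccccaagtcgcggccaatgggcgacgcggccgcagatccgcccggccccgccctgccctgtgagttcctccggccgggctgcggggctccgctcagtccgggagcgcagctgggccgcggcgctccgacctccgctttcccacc
ALDOC: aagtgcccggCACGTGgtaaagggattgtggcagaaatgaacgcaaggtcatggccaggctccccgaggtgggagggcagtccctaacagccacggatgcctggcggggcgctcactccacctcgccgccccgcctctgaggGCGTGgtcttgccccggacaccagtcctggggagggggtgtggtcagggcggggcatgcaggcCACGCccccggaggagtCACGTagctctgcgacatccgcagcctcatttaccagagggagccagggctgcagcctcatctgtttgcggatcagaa
DDIT4: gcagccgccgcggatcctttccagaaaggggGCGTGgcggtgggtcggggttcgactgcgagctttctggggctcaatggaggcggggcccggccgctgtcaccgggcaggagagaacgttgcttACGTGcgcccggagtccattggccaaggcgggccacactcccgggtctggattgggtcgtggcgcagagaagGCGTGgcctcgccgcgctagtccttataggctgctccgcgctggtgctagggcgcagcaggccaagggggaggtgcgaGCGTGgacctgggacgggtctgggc
ADM held 1 core, starting 101 bases before the start, and BNIP3 held 6, all between 143 and 104 bases before it. ALDOC held 5 and DDIT4 held 4. Of the 19 genes for which metastin-10 with control siRNA stood alone and low, 14 had a window, and 11 of these (78.6%) held at least 1 core. The share was 56.4% over the 15384 measured genes with a window. Among the 297 genes with a window that were lower with metastin-10 and control siRNA than in the other 3 groups, 159 (53.5%) held one. A match describes the letters in the window and is not a binding site.

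CYP1A1 encodes the cytochrome P450 best known as a target of the aryl hydrocarbon receptor, which pairs with the same partner, ARNT, as the HIF alpha subunits. Its levels were 8.98, 8.91 and 8.80 with metastin-10 and GPR54 siRNA, 8.94, 8.92 and 8.93 with control peptide and GPR54 siRNA, 7.80, 7.69 and 7.92 with metastin-10 and control siRNA, and 8.80, 8.95 and 8.91 with control peptide and control siRNA. Metastin-10 with control siRNA lay at least 0.878 below the other 9 arrays, and the interaction was 1.05 ± 0.12 with an adjusted p of 0.00799. The window of CYP1A1, chr15:74725479-74725778 on the minus strand, is shown because the core GCGTG is also the core bound by the aryl hydrocarbon receptor with ARNT, so that these letters do not tell the factors apart.
CYP1A1: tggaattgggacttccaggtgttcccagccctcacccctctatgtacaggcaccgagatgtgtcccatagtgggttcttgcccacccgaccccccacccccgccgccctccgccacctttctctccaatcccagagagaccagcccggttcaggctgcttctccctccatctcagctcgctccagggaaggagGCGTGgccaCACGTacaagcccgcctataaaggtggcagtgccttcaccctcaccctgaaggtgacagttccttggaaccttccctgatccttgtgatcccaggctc
It held 2 cores, starting 57 and 48 bases before the start. Of the 9 measured targets of this receptor, CYP1A1 was the only one past the interaction test, against 0.106% of all genes. CYP1A2 and CYP1B1 had interactions of 0.75 and 0.30, and both were lower with metastin-10 and control siRNA than in the other 3 groups.

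Other called genes encode secreted proteins. SCGB1D1, a secretoglobin also called lipophilin A, had the largest interaction among the 21 genes, 1.60 ± 0.19, with 7.54, 7.36 and 7.36 with metastin-10 and GPR54 siRNA, 7.47, 7.25 and 7.22 with control peptide and GPR54 siRNA, 5.35, 5.46 and 5.92 with metastin-10 and control siRNA, and 7.11, 7.04 and 7.06 with control peptide and control siRNA. Metastin-10 with control siRNA was lowest in all 3 replicates, and its replicate 3 was 0.455 above the next of that group. A related secretoglobin, SCGB2A1 or mammaglobin B, had 0.81 ± 0.12 at a higher level, with group means of 11.40, 11.21, 10.40 and 11.02 in the order metastin-10 with GPR54 siRNA, control peptide with GPR54 siRNA, metastin-10 with control siRNA, and control peptide with control siRNA. STC1 encodes stanniocalcin-1, a secreted glycoprotein of calcium and phosphate balance, and had the smallest called interaction, 0.67 ± 0.10. Its dimmer probe sets had 0.72 and 0.62 and missed the test. INHBE encodes the activin beta-E subunit. It had 0.92 ± 0.12 and was the called gene for which control peptide with control siRNA lay furthest above control peptide with GPR54 siRNA, at 8.30 against 8.09.

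G0S2, an inhibitor of the triglyceride lipase ATGL, and MMP10, the matrix protease stromelysin-2, had closely spaced arrays. G0S2 had 8.49, 8.49 and 8.41 with metastin-10 and GPR54 siRNA, 8.42, 8.35 and 8.28 with control peptide and GPR54 siRNA, 7.37, 7.40 and 7.47 with metastin-10 and control siRNA, and 8.43, 8.42 and 8.41 with control peptide and control siRNA. The 3 arrays of control peptide with control siRNA lay within 0.0203 of each other, and the interaction was 1.13 ± 0.10 with an adjusted p of 0.00279. Its order differed from most of the 19 genes, since control peptide with control siRNA lay above control peptide with GPR54 siRNA. MMP10 had 8.98, 9.04 and 9.07 with metastin-10 and GPR54 siRNA, 8.85, 8.86 and 8.94 with control peptide and GPR54 siRNA, 7.69, 7.86 and 7.91 with metastin-10 and control siRNA, and 8.70, 8.79 and 8.87 with control peptide and control siRNA. Its 3 interactions by replicate number were 1.14, 1.11 and 1.09. Of the 28 measured matrix proteases and inhibitors, MMP10 was the only one past the interaction test, against 0.106% of all genes.

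DPYSL4, a member of the collapsin response mediator family, and RFX4, a transcription factor of the RFX family, completed the genes with a positive value, at 1.05 ± 0.16 and 0.88 ± 0.13. Dimmer probe sets of DPYSL4 had 0.08 and -0.16, those of RFX4 had -0.06 and 0.05, and all of these missed the test. RFX4 was dim, with group means of 5.07, 4.88, 4.17 and 4.87, and the background level of these arrays is unknown. Its call was lost with a replicate block and with the arrays shifted to a common median. Of 21 measured genes of motile cilia, a structure whose genes RFX factors regulate, 0 were past the interaction test, against 0.106% of all genes. CFAP96, at 0.94 ± 0.15 with an adjusted p of 0.0661, was the nearest to it.

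**Figure D3:**
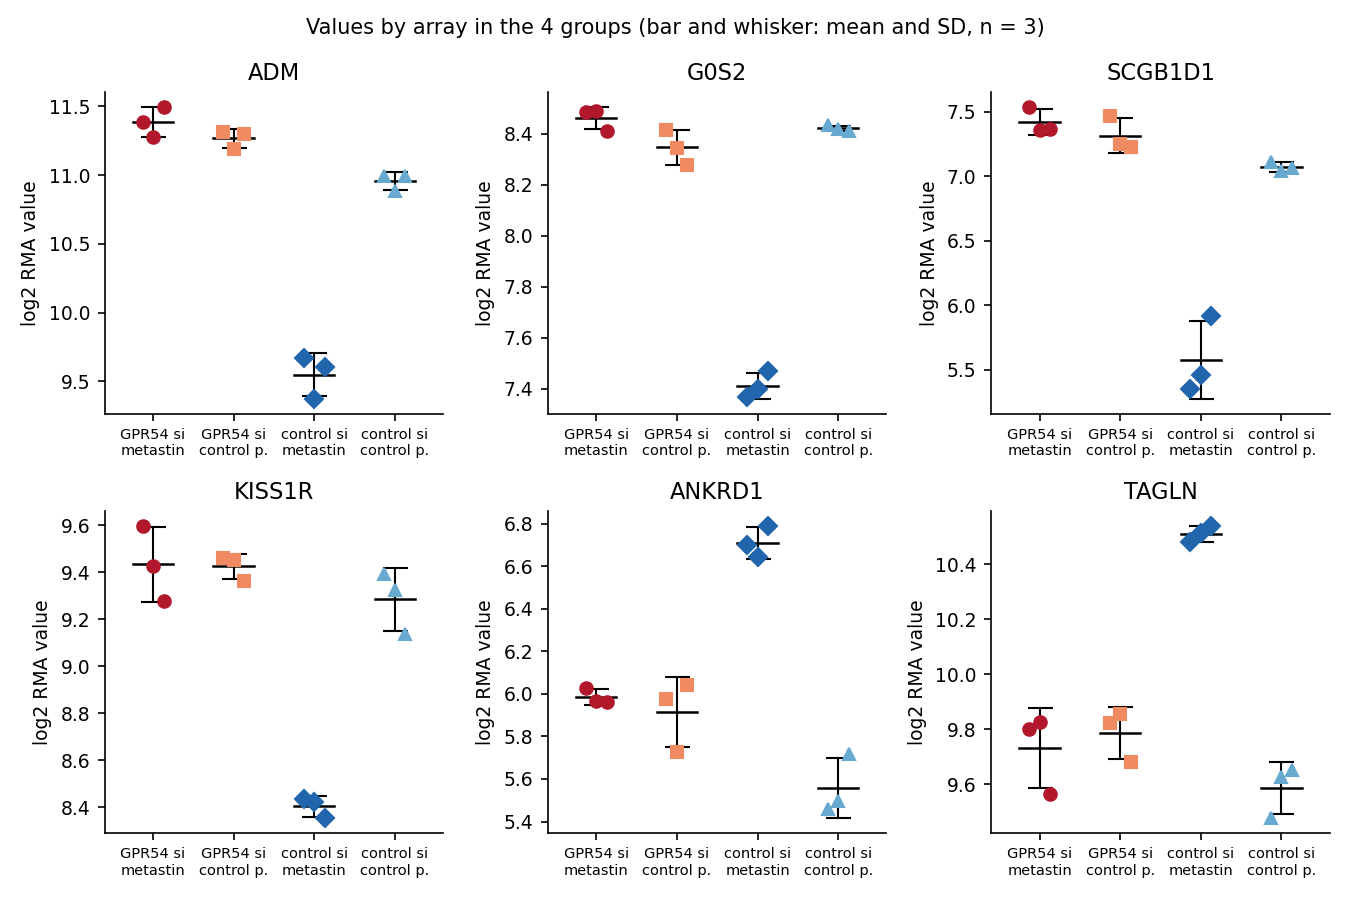
Log2 RMA value (vertical axis of each panel, scaled to the gene) on each of the 12 arrays for 6 of the 21 genes, with the groups from left to right metastin-10 with GPR54 siRNA, control peptide with GPR54 siRNA, metastin-10 with control siRNA and control peptide with control siRNA. Points are arrays, bars are means and whiskers SD (n = 3), and metastin-10 with control siRNA lies apart from the other 9 arrays in every panel, below them for ADM, G0S2, SCGB1D1 and KISS1R and above them for ANKRD1 and TAGLN.

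ANKRD1 and TAGLN had the opposite shape. ANKRD1 encodes an ankyrin repeat protein of muscle nuclei that is a widely used target of the YAP-TEAD transcription factors. It had 6.03, 5.97 and 5.96 with metastin-10 and GPR54 siRNA, 5.98, 5.73 and 6.04 with control peptide and GPR54 siRNA, 6.70, 6.64 and 6.79 with metastin-10 and control siRNA, and 5.46, 5.50 and 5.72 with control peptide and control siRNA. Its interaction was -1.08 ± 0.14 with an adjusted p of 0.0215, and the fold of metastin-10 over control peptide was 1.05 with GPR54 siRNA and 2.23 with control siRNA. ANKRD1 was also lower with control peptide and control siRNA than in the other 3 groups, by 0.65, but that mean of 3 groups holds the high one. As group means, 5.99, 5.92, 6.71 and 5.56 in the same order, both control siRNA groups lay outside the pair labelled GPR54 siRNA, on opposite sides. Under control peptide alone, the siRNA labels differed by limma at 29 of 54613 probe sets, all lower with GPR54 siRNA. Of these, 24 had no gene listed and 0 were the brightest of a gene, so this ANKRD1 probe set was not among them. TAGLN, the actin-binding protein transgelin and a target of serum response factor, had 9.80, 9.83 and 9.56 with metastin-10 and GPR54 siRNA, 9.82, 9.85 and 9.68 with control peptide and GPR54 siRNA, 10.48, 10.51 and 10.54 with metastin-10 and control siRNA, and 9.48, 9.63 and 9.65 with control peptide and control siRNA. Its interaction was -0.98 ± 0.13 with an adjusted p of 0.0241. A second TAGLN probe set was also past the test, at -0.90, and another, at -0.23, was not.

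The ANKRD1 window, chr10:90921038-90921337 on the minus strand, is shown with the TEAD-bound letters GGAATG in capitals, on either strand.
ANKRD1: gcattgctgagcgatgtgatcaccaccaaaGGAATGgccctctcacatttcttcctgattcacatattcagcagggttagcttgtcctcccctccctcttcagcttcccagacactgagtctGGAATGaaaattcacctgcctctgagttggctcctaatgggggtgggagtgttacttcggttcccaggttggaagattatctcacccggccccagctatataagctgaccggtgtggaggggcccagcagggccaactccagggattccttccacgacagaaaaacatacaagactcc
It held 2 matches, starting 220 and 128 bases before the start, and no HIF core. The motif was found in 11.9% of the 15384 windows of measured genes. Of 23 measured YAP-TEAD target genes, 1 was past the interaction test, against 0.106% of all genes. Their median interaction was -0.09, against -0.01 over all genes. CCN2 and CCN1, secreted matricellular targets of the same factors, had interactions of -0.81 and -0.47 that did not pass. Of 22 measured actin and serum response factor targets, TAGLN alone was past the test, against the same 0.106%. A value below 0 was held by 18 of the 22, and by 10332 of all 19775 genes.

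Of the 7 called probe sets that stood for no gene among the 21, 1 was the second one of TAGLN and 4 had a graded shape. Among the graded ones was 1 of HNRNPD, an RNA-binding protein, at 1.28 ± 0.18. HNRNPD had 6.18, 6.16 and 5.98 with metastin-10 and GPR54 siRNA, 5.92, 5.73 and 5.57 with control peptide and GPR54 siRNA, 5.27, 5.22 and 5.58 with metastin-10 and control siRNA, and 6.17, 6.44 and 6.18 with control peptide and control siRNA, so the highest and the lowest group were both of control siRNA. The largest interaction of all, 2.13 ± 0.28, was of a probe set assigned to several genes and had the same order at the extremes. Another probe set with no gene listed was the only called one for which control peptide with control siRNA stood alone, with a mean of 4.28 for metastin-10 with GPR54 siRNA, 4.49 for control peptide with GPR54 siRNA, 4.42 for metastin-10 with control siRNA and 5.88 for control peptide with control siRNA, whose 3 arrays had an SD of 0.167.

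The lists, which were chosen with earlier results of these data known, were then read as wholes. Among the 41 hypoxia-induced genes the median interaction was 0.54, against -0.01 over all genes, and 37 had a value above 0. Among the 25 genes of glycolysis and glucose uptake the median was 0.22 and all 25 lay above 0, although 1 was past the test. VEGFA, the angiogenic growth factor, had 0.73 ± 0.15 with an adjusted p of 0.183. NDRG1, a stress-responsive protein, had 1.08 ± 0.26 with an adjusted p of 0.299, the standard error being larger than for ADM. ENO2 had 0.76, SLC2A1, the glucose transporter GLUT1, 0.21, PGK1 0.27 and LDHA, the lactate dehydrogenase A subunit, 0.09. ANGPTL4, JMJD6, RIOX2 and CA12 were the 4 hypoxia-induced genes below 0, with CA12, a carbonic anhydrase, lowest at -0.23. The 16 genes that encode the HIF subunits and the oxygen-sensing enzymes had 0 calls and a median of 0.01. The order in which control peptide with control siRNA was intermediate held for 35 of the 41 hypoxia-induced genes (85.4%) and 22 of the 25 of glycolysis (88.0%).

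**Figure D4:**
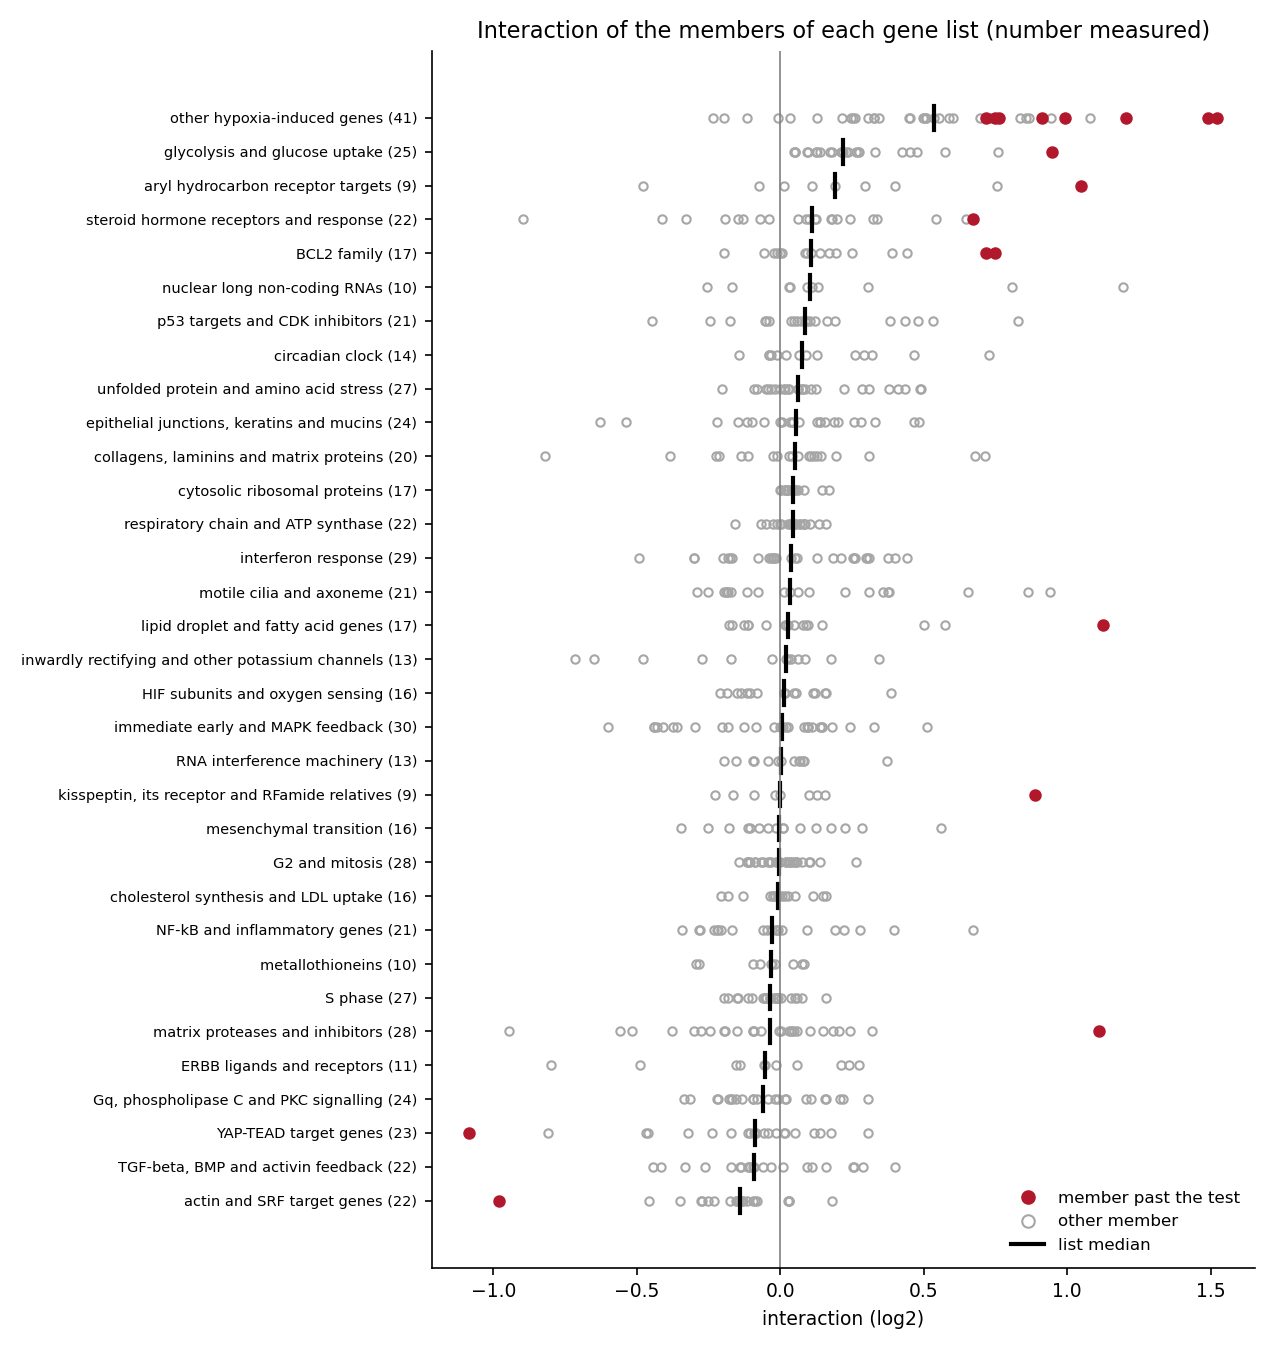
Interaction (horizontal axis, log2) of the measured members of 33 gene lists, a circle for each gene, filled where the gene was past the test, with the list median as a bar and the number measured in brackets. The hypoxia-induced genes have the highest median, 0.54, and the actin and serum response factor targets the lowest, -0.14.

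Other lists held few calls or none. The share over all genes was 0.106%, so 0 calls in lists of this length tell little. None of 24 genes of Gq, phospholipase C and protein kinase C signalling was past the test, and their values lay between -0.34 and 0.31. The 27 genes of S phase and the 28 of G2 and mitosis had 0 calls, medians of -0.03 and -0.01, and no value above 0.27 in size. There were also 0 calls among 30 immediate early and MAPK feedback genes, 29 interferon response genes, 27 genes of unfolded protein and amino acid stress, 16 of cholesterol synthesis, 22 of the respiratory chain and 13 of RNA interference. At an unadjusted p under 0.05 the immediate early list had 5 genes, the interferon list 4 and the list of unfolded protein and amino acid stress 6, which was 16.7%, 13.8% and 22.2%, while the Gq, S phase, mitosis, cholesterol, respiratory chain and RNA interference lists had 0 genes, against 6.28% of all genes, and the hypoxia-induced list had 29 of 41. Among 22 steroid hormone receptors and response genes STC1 was the only call, and among 17 lipid droplet genes G0S2. Among 21 p53 targets and CDK inhibitors, CDKN1C, the inhibitor p57, had 0.83 ± 0.17 with an adjusted p of 0.191.

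Each group was then set against the mean of the other 3, a contrast that overlaps the interaction and does not by itself test the shape. Metastin-10 with control siRNA differed at 662 probe sets (1.21% of those tested), 73 higher (0.134%) and 589 lower (1.08%), and among genes at 44 higher (0.223%) and 369 lower (1.87%). Metastin-10 with GPR54 siRNA differed at 10 probe sets (0.0183%), 8 higher (0.0146%) and 2 lower (0.00366%). Control peptide with GPR54 siRNA differed at 0 by limma, with 2321 at an unadjusted p under 0.05, at 6 with array weights and at 1 with a replicate block. Control peptide with control siRNA differed at 103 (0.189%), 101 higher (0.185%) and 2 lower (0.00366%). Single arrays moved these counts. The count of 662 was 210 without replicate 1 and 229 without replicate 2 of metastin-10 with control siRNA, and between 443 and 878 without any other array. The count of 10 was at most 4 without any 1 of the 12 arrays. The count of 103 was 15 without replicate 1 and 15 without replicate 2 of control peptide with control siRNA, and between 53 and 96 without any other array. These contrasts share arrays with each other and with the interaction, and each has the low group among its other 3, so a gene that 1 group lowers can pass for another group too. The 8 genes called higher for metastin-10 with GPR54 siRNA (0.0405%), ADM and SPAG4 first, all had the shape in which metastin-10 with control siRNA was alone and low.

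**Figure D5:**
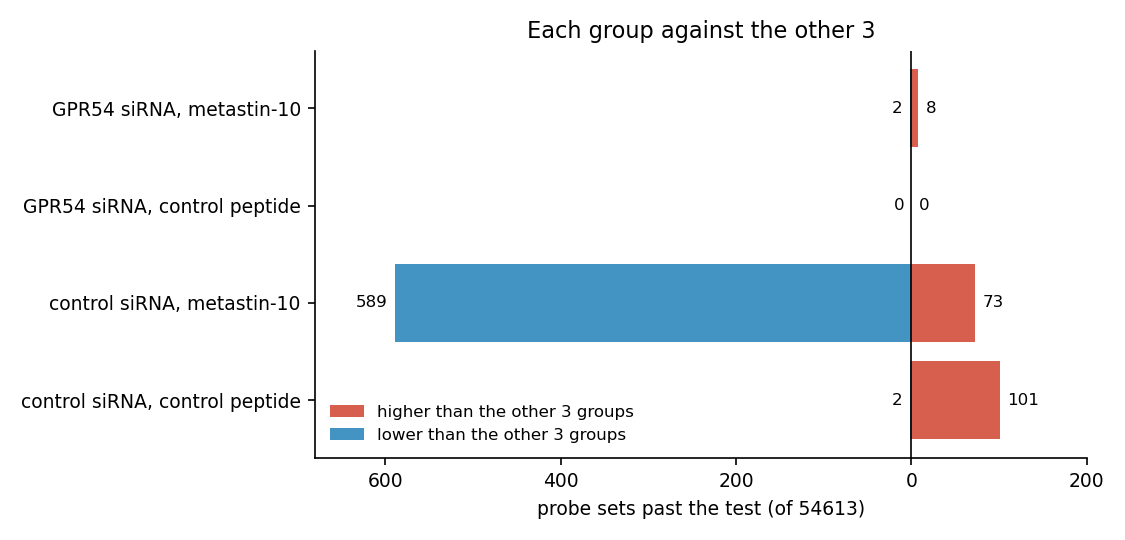
Number of probe sets past the test (horizontal axis, of 54613) for each group against the mean of the other 3 groups, with higher ones to the right of 0 and lower ones to the left. Metastin-10 with control siRNA has 589 lower and 73 higher, and control peptide with control siRNA has 101 higher and 2 lower.

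With 1 group left aside, an F test asked whether the remaining 3 groups differed at all. Leaving out metastin-10 with control siRNA left 25 probe sets (0.0458%), of which 23 had no gene listed and 2 were dimmer probe sets of DLEU2 and GOLGA4, named after their values were seen, so that 0 were the brightest of a gene, while 2061 had an unadjusted p under 0.05. Leaving out metastin-10 with GPR54 siRNA left 312 (0.571%), control peptide with GPR54 siRNA 334 (0.612%), and control peptide with control siRNA 290 (0.531%). The 25 were 7 and 4 without replicates 1 and 2 of control peptide with control siRNA, and 14 to 29 without any other array. They were 47 with a replicate block, 56 with a block for replicate 3 and 139 with array weights.

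Among the 369 genes lower with metastin-10 and control siRNA, the median interaction was 0.44. The choice of genes with a low mean in this group favours a positive interaction and the order given next, so both describe the genes and support nothing. The order with control peptide and control siRNA in between held for 272 of them (73.7%). Hypoxia-induced genes among the 369 numbered 30 of 41, and glycolysis genes 9 of 25, against 1.87% of all genes. RORA, a nuclear receptor of the circadian clock, and CXCR4, a chemokine receptor, were among those not called for the interaction, at -1.13 and -0.92 against the other 3 groups. Of 21 cilia genes 5 were lower, against the same 1.87%, as differences from the mean of the other 3 groups, FOXJ1, the master regulator of motile cilia, at -0.56, DNAI7 at -0.94, RSPH1 at -0.70, CFAP96 at -1.01 and CFAP45 at -0.34. CDKN1C and CDKN1A, inhibitors of cyclin-dependent kinases, were lower at -0.91 and -0.47. COL6A1 and COL5A2, collagen chains, were lower at -0.70 and -0.85, and TSC22D3, the glucocorticoid-induced protein GILZ, at -0.68. Among the 44 genes higher were ADAMTS5, a protease of aggrecan, at 0.95, CCN2 at 0.65, CLDN1, a tight junction protein, at 0.53, NRG1, a ligand of ERBB receptors, at 0.50, and the potassium channels KCNJ2 and KCNJ16 at 0.60 and 0.60. Most of the genes named in these sentences were picked after their values were seen.

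The probe sets higher with control peptide and control siRNA were of another kind. Of the 103 called in either direction, 71 (68.9%) had no gene listed, against 21.5% of all probe sets. Of the 101 higher ones, 57.4% had a mean level under 5, against 47.4% of all probe sets and 4.34% of the 369 genes described above. After each probe set was centred on its mean over the 12 arrays, the median of the 101 was 0.56, 0.56 and 0.44 on the arrays of this group and between -0.29 and -0.11 on the other 9. FTX, a nuclear long non-coding RNA, had 5.20, 4.37 and 4.02 with metastin-10 and GPR54 siRNA, 4.41, 4.72 and 4.30 for control peptide with GPR54 siRNA, 4.56, 4.50 and 4.57 with metastin-10 and control siRNA and 5.95, 5.81 and 5.29 with control peptide and control siRNA. Its excess over the other 3 groups was 1.16 with an adjusted p of 0.044, and its interaction of 1.19 did not pass. SMG1P5 and ANKRD36B were also higher, and CALCB, which encodes the beta form of the neuropeptide CGRP, was lower at -0.42. The array control that reads Alu repeats averaged 13.99 ± 0.06 with metastin-10 and GPR54 siRNA, 13.94 ± 0.06 for control peptide with GPR54 siRNA, 14.05 ± 0.08 with metastin-10 and control siRNA, and 14.13 ± 0.08 with control peptide and control siRNA. The part of this difference in the 101 probe sets was not tested.

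The average effects were read next, and an average can rest on 1 siRNA label or 1 peptide alone. The metastin-10 difference averaged over both labels passed at 7 probe sets (0.0128%), and 6 were of genes already past the interaction test, ADM, CYP1A1, ANKRD1, G0S2, DDIT4 and SCGB1D1. The remaining one was the probe set, also past the interaction test, for which control peptide with control siRNA stood alone. Within the arrays labelled GPR54 siRNA, the metastin-10 difference passed at 0 probe sets by limma, with 1206 at an unadjusted p under 0.05. The siRNA label difference averaged over both peptides passed at 145 probe sets (0.266%), 112 higher (0.205%) and 33 lower (0.0604%) with GPR54 siRNA, and at 83 genes higher (0.42%) and 1 lower (0.00506%). The count of 145 was 141, 155 and 119 without replicate 3 of metastin-10 with GPR54 siRNA, of metastin-10 with control siRNA and of control peptide with control siRNA, and between 69 and 95 without any other array. The count of 7 was at most 6 without any 1 array. Of the 84 genes (0.425%), 80 had metastin-10 with control siRNA alone and low. Of the other 4, 3 followed the siRNA label. PWAR6, a long non-coding RNA of the Prader-Willi region, was lower with GPR54 siRNA under both peptides, at 6.86, 6.71 and 6.47 with metastin-10 and GPR54 siRNA, 6.95, 6.93 and 6.70 with control peptide and GPR54 siRNA, 7.23, 7.20 and 7.13 with metastin-10 and control siRNA and 7.55, 7.51 and 7.22 with control peptide and control siRNA. DKK2, a Wnt inhibitor, and DHRS13, a short-chain dehydrogenase, were higher with GPR54 siRNA under both peptides, by 0.58 and 0.32 on average. DKK2 was dim, with group means of 3.77, 3.97, 3.16 and 3.42 in the same order of groups, and had a limma adjusted p of 0.0417. PFKFB4, a regulator of glycolysis, was graded, with group means of 8.28, 8.22, 7.48 and 7.86 in the order used above.

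The count of 28 rested on all 12 arrays. With replicate 3, whose ACTB control levels differed, left out of every group it was 2, and with replicate 3 as a block it was 73. Leaving out replicate 3 of metastin-10 with GPR54 siRNA gave 30, and leaving out replicate 3 of metastin-10 with control siRNA gave 32. Leaving out any one of the other 10 arrays gave 6 to 14: 9 and 6 without replicates 1 and 2 of metastin-10 with GPR54 siRNA, 14, 10 and 10 without replicates 1, 2 and 3 of control peptide with GPR54 siRNA, 10 and 9 without replicates 1 and 2 of metastin-10 with control siRNA, and 10, 8 and 10 without those of control peptide with control siRNA. ADM, G0S2, MMP10, SPAG4 and SCGB1D1 were called in all 12 of the fits without 1 array. Of these genes, only SCGB1D1 was also called from replicates 1 and 2 alone, a fit with fewer arrays. Among the 12 fits, DDIT4 and CYP1A1 were lost only without replicate 2 of metastin-10 with GPR54 siRNA, each at an adjusted p of 0.0525. Both were also lost from replicates 1 and 2 alone. COXFA4L2 was called in 6 of the 12, ALDOC, ANKRD1 and MIR210HG in 4, TAGLN and INHBE in 3, TMEM45A and RFX4 in 2, and DPYSL4, SCGB2A1 and KISS1R in 1. BNIP3, STC1 and BNIP3L were called in 0 of them. With the arrays shifted to a common median, 22 probe sets were called and 21 of the 28 were kept, and KISS1R, BNIP3, BNIP3L, STC1, DPYSL4 and RFX4 were lost. The estimates moved little over the 12 fits, between 1.44 and 1.58 for ADM and between 0.81 and 0.97 for KISS1R, and the sign was the same for each gene in all 12. By replicate number, the median interaction of the hypoxia-induced genes was 0.60 from replicates 1, 0.59 from replicates 2 and 0.41 from replicates 3.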

How the data were processed

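RNA of Ishikawa cells in 4 groups of 3 was hybridised to Affymetrix U133 Plus 2.0 arrays, whose probe sets are groups of short oligonucleotides for 1 transcript. Per the labels' protocols, total RNA was prepared with Qiagen RNeasy and labelled by one-cycle in vitro transcription. The values deposited by the authors are on the log2 scale and come from RMA, as the submitters' processing notes say. RMA subtracts background, brings the arrays to a common distribution by quantiles, and summarises each probe set. The software version is not given in the sources used here. RMA gives all arrays 1 distribution, so a shift common to most genes would not be seen. Without detection calls, the background level is unknown.

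Of 54675 probe sets, 62 controls were left out. Probe sets were named through the platform annotation, which gave 1 gene for 41091, several for 1801 and none for 11721. The brightest probe set stood for each of 19775 genes. A model of 4 group means over the 12 arrays, with 8 residual degrees of freedom, was fitted by limma (version 3.58.1, R 4.3.3) and moderated by empirical Bayes. P-values were adjusted by Benjamini-Hochberg over all 54613 probe sets, two-sided, at 0.05. In simulated data each array was drawn independently with the within-group SD of each probe set, and only metastin-10 with control siRNA was shifted. There, 67% of probe sets changed by 1 and 90% changed by 1.5 on the log2 scale were recovered. Deviations shared by arrays of the same replicate number were not simulated, so these shares need not hold for the real arrays.

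Named genes were KISS1R and KISS1, up to 15 called genes per direction by size, the 3 smallest p-values per further shape and average effect, and up to 3 genes per list. Others were named after their values were seen. The comparison, its members and the gene lists were chosen with earlier results of these data known. P-values measure the spread between these arrays. Alternatives were a replicate block, a block for replicate 3, replicates 1 and 2 only, a filter at a mean of 5, array weights, a common median, other gene summaries and leaving out each array. Promoter windows came from RefSeq tables of GRCh38.p14.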

Additional observations from a re-analysis of the deposited data

Results flagged for a closer look

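Each result here is a metastin-10 difference that itself differed between the arrays labelled GPR54 siRNA and those labelled control siRNA, by limma's test of the interaction. There were 28 such probe sets. The positive interactions, each in 3 of 3 replicate numbers, were 1.60 for SCGB1D1, 1.52 for ADM, 1.49 for COXFA4L2, 1.21 for SPAG4, 1.13 for G0S2, 1.11 for MMP10, 1.05 for CYP1A1 and 1.05 for DPYSL4 on the log2 scale. Those under 1 were 0.99 for MIR210HG, 0.95 for ALDOC, 0.92 for INHBE, 0.91 for DDIT4, 0.89 for KISS1R, 0.88 for RFX4, 0.81 for SCGB2A1, 0.76 for TMEM45A, 0.75 for BNIP3, 0.72 for BNIP3L and 0.67 for STC1. The negative interactions were -1.08 for ANKRD1 and -0.98 for TAGLN. Agreement of sign over the replicate numbers describes genes chosen on the same arrays and was not a further test. With 3 arrays a group, single arrays that lie apart were not sought within groups.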

How the results depend on the processing

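Of the 28 interaction calls, 26 were kept (RFX4 and a probe set with no gene listed were lost) when replicate numbers entered as a block, although the labels do not say that a number marks a shared batch. Same-numbered arrays deviated together in 14 of 18 pairs (r over 0.1, range -0.15 to 0.54), and 9 of 12 arrays correlated best with their own number. With this replicate block the counts were 45 for the interaction, 13 and 257 for the average metastin-10 and siRNA effects, 1 for control peptide with GPR54 siRNA and 1052 for metastin-10 with control siRNA against the other 3 groups, and 500 and 47 among the groups left without metastin-10 with GPR54 siRNA and without metastin-10 with control siRNA. The same quantities are given below in the order interaction, average metastin-10, average siRNA, then metastin-10 with GPR54 siRNA, control peptide with GPR54 siRNA, metastin-10 with control siRNA and control peptide with control siRNA, each first against the other 3 groups and then left aside. Array weights gave 250, 69 and 666, then 258, 6, 1503 and 215, then 675, 1229, 139 and 953. A block for replicate 3 gave 73, 38 and 309, then 21, 1220 and 164 (control peptide with GPR54 siRNA stayed at 0), then 616, 607, 56 and 505, and kept all 28 interaction calls. Replicates 1 and 2 alone gave 2, 0 and 93, then 0 for metastin-10 with GPR54 siRNA and 1851 for metastin-10 with control siRNA, then 200, 0 and 187 with metastin-10 and GPR54 siRNA, metastin-10 and control siRNA, and control peptide and control siRNA left aside. A minimum mean of 5 gave 55, 33 and 251, then 1024 and 36 for metastin-10 and for control peptide with control siRNA, and 7 and 450 with these left aside. Shifting arrays to a common median gave 22 for the interaction, kept 21 of the 28 calls, and left 2 for metastin-10 with GPR54 siRNA. Adjusting over the brightest probe sets alone gave 42 interaction genes, and the mean over probe sets 34, against 21.

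Leaving out 1 array in turn gave 6 to 32 for the interaction, 0 to 6 and 69 to 155 for the average effects, 0 to 4, 0 to 0, 210 to 878 and 15 to 96 against the other 3 groups, and 117 to 359, 126 to 342, 4 to 29 and 89 to 307 with each group left aside. For the named genes past the interaction test, 204 of the values under alternatives kept their side of the threshold and 155 lost it, and 0 changed sign. The cause of these changes was not tested, apart from the fewer arrays or probe sets that an alternative holds. Dim probe sets, whose signal over background is unknown, limit the rest.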
